A study of Mus musculus with 27 samples.

Results

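The HoxD cluster is a row of 9 homeobox genes on mouse chromosome 2, read here as every deposited peak that overlaps the mm9 interval chr2:74500000-74610000. By their first starts in RefSeq, the genes run from Hoxd13 at the low end through Hoxd12, Hoxd11, Hoxd10, Hoxd9, Hoxd8, Hoxd3 and Hoxd4 to Hoxd1 at the high end, with a long Hoxd3 gene model that spans Hoxd4. Of 234651 peaks in 19 lists, 208 overlapped the 110 kb interval: 129 H3K27me3 peaks, 79 H3K4me3 peaks and 0 UTX peaks. The lists came from chromatin immunoprecipitation followed by sequencing (ChIP-seq), and the series asked what the H3K27 demethylase UTX does to these marks when fibroblasts are turned towards pluripotency. Gene positions in mm9 were not used here, so peaks are placed by their distance from the Hoxd13 end of the interval and not assigned to single genes.

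The fibroblast samples were mouse embryonic fibroblasts (MEF) of the strain labelled V19-OSKM, either Utx+/Y (WT) or Utx-/Y (Utx-KO). Both genotypes were grown in 2i/LIF without or with doxycycline (dox), which switches on the reprogramming factors Oct4, Sox2, Klf4 and c-Myc. The embryonic stem cells (ESC) were of the V6.5 line, Utx+/Y or Utx-/Y, kept in N2B27 with 2i/LIF. Induced pluripotent (iPS) cells came as 2 Utx-/Y clones of V19-OSKM that the submitters describe as wrongly reprogrammed, with no dox at sampling. Each state had 1 library per mark, and each iPS clone was a separate library, so no difference below was tested against replicate spread. The sources used here do not give the length of dox treatment, the age of the embryos, or whether embryos were pooled. Neither the Utx locus nor markers of the cell types were analysed here, so genotypes and cell types are those of the labels.

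Hox genes encode transcription factors that set position along the body axis. In HoxD, genes near the Hoxd1 end act early and towards the head, whereas Hoxd10 to Hoxd13 act late in the posterior trunk, the limbs and the genital bud. Polycomb repressive complex 2 writes H3K27me3 over Hox clusters that are kept silent, and UTX is an enzyme that removes this mark. H3K4me3 marks promoters of active genes, and in ES cells Hox promoters are known to carry it together with H3K27me3, a state called bivalent. Both marks tend to form over DNA rich in CG dinucleotides.

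The sequence just before each gene start is shown for the first, the middle and the last gene of the row, since the density of CG there is a feature that the choice of the interval did not use. The windows are the 250 bases before the start on the plus strand of GRCm38.p6, from RefSeq, printed 5′ to 3′ with every CG in capitals. They belong to another build than the peaks and were not placed on them.
Hoxd13: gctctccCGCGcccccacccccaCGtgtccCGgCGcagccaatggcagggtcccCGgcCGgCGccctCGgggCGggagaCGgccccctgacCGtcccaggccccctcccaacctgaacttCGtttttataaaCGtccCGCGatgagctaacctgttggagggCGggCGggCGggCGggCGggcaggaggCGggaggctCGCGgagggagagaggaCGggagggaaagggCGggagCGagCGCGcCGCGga
Hoxd9: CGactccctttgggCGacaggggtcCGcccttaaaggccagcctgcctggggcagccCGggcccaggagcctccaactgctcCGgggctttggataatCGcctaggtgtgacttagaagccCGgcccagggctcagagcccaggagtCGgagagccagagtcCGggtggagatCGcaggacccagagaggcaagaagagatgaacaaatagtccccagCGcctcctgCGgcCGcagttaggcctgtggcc
Hoxd1: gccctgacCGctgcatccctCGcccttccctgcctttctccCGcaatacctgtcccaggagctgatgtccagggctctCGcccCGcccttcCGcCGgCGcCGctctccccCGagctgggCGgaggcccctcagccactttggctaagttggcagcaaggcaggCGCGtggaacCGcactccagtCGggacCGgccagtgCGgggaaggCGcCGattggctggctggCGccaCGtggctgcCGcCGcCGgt
CG was counted as these 2 letters, which read the same on both strands. The Hoxd13 window held 31 CG and the Hoxd1 window 24, and the Hoxd9 window in the middle held 13. All 9 genes were matched, with 10 windows because Hoxd11 has 2 starts. The median was 12.5 CG per window, against 6 over all 32851 windows of the table, 92.1% of which held at least 1 CG. The other windows held 10 CG for Hoxd12, 2 and 20 for Hoxd11, 20 for Hoxd10, 6 for Hoxd8, 3 for Hoxd4 and 12 for Hoxd3. As many CG as at Hoxd13 were found in 5.19% of all windows, and as many as at Hoxd4 in 71.0%. The windows before Hoxd13 and Hoxd1, at both ends of the row, were the richest in CG of the 10, and 7 of 10 lay above the median of all windows.

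The cluster was an H3K27me3 domain in untreated fibroblasts and an H3K4me3 domain in WT fibroblasts with dox. In ES cells of both genotypes and in Utx-KO fibroblasts with dox it carried both marks, with H3K27me3 the longer. Among untreated fibroblasts, H3K27me3 peaks covered 34.9 kb of the 110 kb in the WT and 32.1 kb in the Utx-KO. WT ESC had 33.5 kb, and the lengths were far greater in Utx-KO MEF with dox, at 70.9 kb, and Utx-KO ESC, at 93.7 kb. It covered only 2.40 kb in WT MEF with dox, 0.589 kb in iPS clone 1 and 0 kb in iPS clone 2. H3K4me3 was longer with dox in both fibroblast genotypes, at 39.8 kb against 1.21 kb in the WT and 13.6 kb against 0.976 kb in the Utx-KO. The marks thus moved in opposite directions with dox in WT fibroblasts, and both were longer with dox in Utx-KO fibroblasts. In the ES cells H3K4me3 covered 10.9 kb in the WT and 8.70 kb in the Utx-KO, and in the wrongly reprogrammed iPS clones 17.4 kb (clone 1) and 31.5 kb (clone 2).

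**Figure D1:**
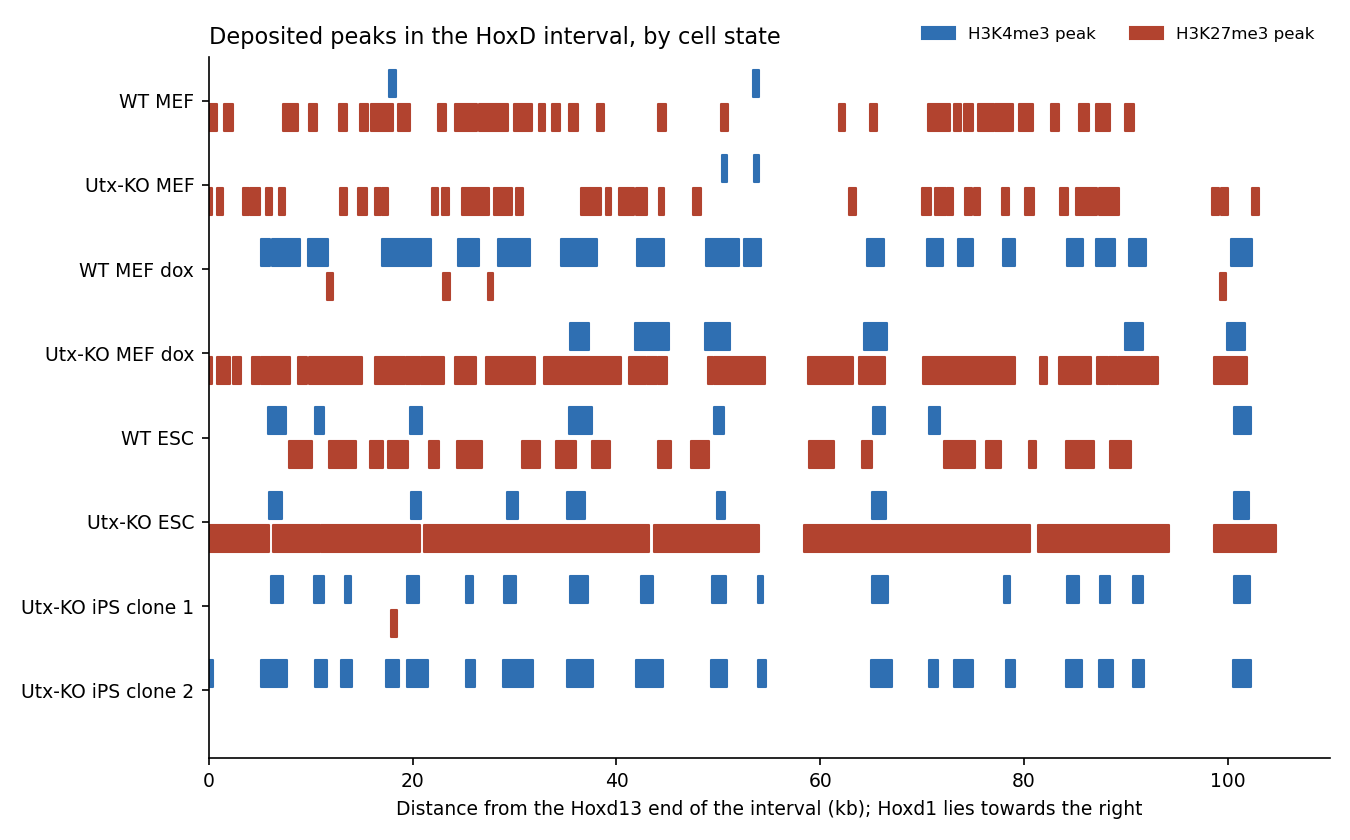
Peaks of H3K4me3 (blue, upper row of each state) and H3K27me3 (red, lower row) against the distance in kb from the Hoxd13 end of the interval, 1 library per row. WT MEF with dox has 18 H3K4me3 peaks and 4 H3K27me3 peaks, Utx-KO MEF with dox 6 and 29, and Utx-KO ESC 7 and 8.

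**Figure D2:**
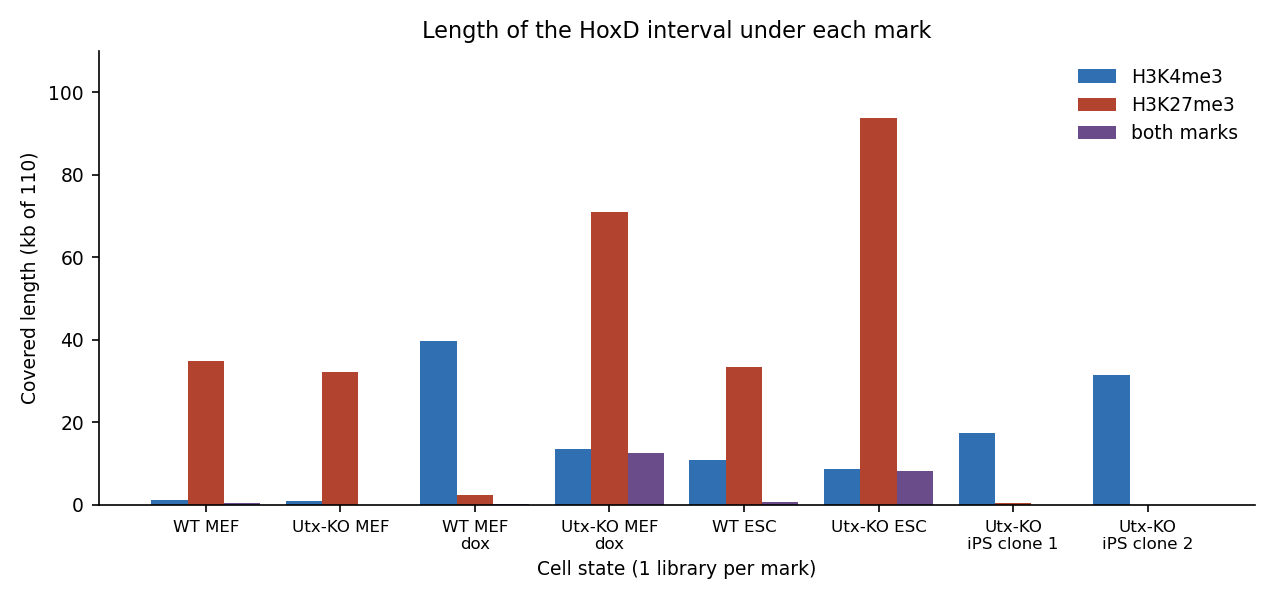
Bars give the kb of the 110 kb HoxD interval covered by H3K4me3, by H3K27me3 and by both at the same bases in each state, 1 library per mark with no error bar. The tallest H3K27me3 bar is Utx-KO ESC at 93.7 kb, and the tallest H3K4me3 bar is WT MEF with dox at 39.8 kb.

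These lengths depend on how much was called in each list. The H3K27me3 lists held from 135 peaks in iPS clone 1 and 938 in WT MEF with dox to 36231 in Utx-KO ESC, and the H3K4me3 lists 16157 to 28232. Read depth was unknown. Each comparison is therefore set beside the share of 110 kb windows over the genome that changed at least 2-fold the same way, counting windows with at least 5 kb of the mark in either list. A score is the peak caller's own value for a peak and is used only to rank peaks within a list.

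HoxD was among the most densely marked stretches of the genome for H3K27me3. Of 24017 consecutive windows of the same length, 2 had as much H3K27me3 as the HoxD interval in each of WT MEF, WT ESC and both Utx-KO fibroblast lists, and 0 had as much in the list of Utx-KO ESC. In the short list of WT MEF with dox, the 2.40 kb of HoxD was matched by only 15 windows, and the highest window had 6.73 kb. The 0.589 kb of iPS clone 1 was matched by 74 windows. The windows were laid without regard to domains, whereas the interval was drawn around one, which favours the interval. For H3K4me3 the interval stood high only in some states: 6132 windows had as much in WT MEF and 908 in WT ESC, but 5 in WT MEF with dox, 90 in iPS clone 1 and 32 in iPS clone 2.

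In untreated fibroblasts HoxD carried many short H3K27me3 peaks and almost no H3K4me3, with or without Utx. WT MEF had 32 H3K27me3 peaks of 582 to 2176 bp and Utx-KO MEF 37 of 543 to 2703 bp. The strongest WT peak lay at chr2:74515955-74518068 with a score of 790.81, rank 20 of 4760 in its list, and the strongest Utx-KO peak at chr2:74524813-74527515 with 614.42, rank 56 of 5708. The total length, Utx-KO minus WT, was -2.76 kb, which is not past 2-fold, as in most windows (25.6% had at least 2-fold less in Utx-KO MEF and 8.52% at least 2-fold more).

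The bases were less alike than the totals. Both lists covered 15.2 kb in common, 19.7 kb was covered in WT MEF only and 17.0 kb in Utx-KO MEF only. Of the 32 WT peaks 20 met a Utx-KO peak (62.5%, exact 95% interval 43.7 to 78.9), against 35.3% of all WT MEF peaks, and 23 of the 37 Utx-KO peaks met a WT peak, against 32% of that list. These shares over the lists do not allow for the density of HoxD, where the mark covered 31.7% in WT MEF and 29.2% in Utx-KO MEF. Many peaks placed anywhere in the interval would meet one, so the counts do not show shared sites. H3K4me3 was limited to 2 weak peaks in each list. WT MEF had them at chr2:74517708-74518328 (score 79.35) and chr2:74553378-74553970 (109.14), and Utx-KO MEF at chr2:74550366-74550863 (141.31) and chr2:74553492-74553969 (103.51). The site near 53.6 kb from the Hoxd13 end was therefore marked in both genotypes, and 1 of the 2 WT peaks met a Utx-KO peak, against 88% of the list. At least 2-fold more H3K4me3 in Utx-KO MEF was found in 0.758% of windows, and at least 2-fold less likewise in 0.758%. In WT MEF 1 of the 2 peaks met H3K27me3 (1.48% of the list), and in Utx-KO MEF 0 of 2 did (0.834% of the list).

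With dox, WT fibroblasts had H3K4me3 across the cluster and little H3K27me3. H3K4me3 rose from 1.21 to 39.8 kb, 32.8 times the length, while its total over the genome rose 2.21 times. Of the 3796 windows counted, 53.4% had at least 2-fold more H3K4me3 with dox, and 1 window gained as many kb as the interval. The 18 peaks were 927 to 4859 bp wide and scored 65.45 to 971.8. The strongest lay at chr2:74528382-74531516 and the widest at chr2:74516983-74521841, and the strongest ranked 9516 of 19689 in its list. Only 2 of the 18 met an H3K4me3 peak of untreated WT MEF, against 64.5% of the list.

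H3K27me3 fell from 34.9 to 2.40 kb, 14.6 times, and its total over the genome was 7.14 times lower. Since 99% of windows had at least 2-fold less in this short list, the fall in HoxD is what nearly every marked window showed. The 4 remaining peaks scored 52.65 to 85.36, and the strongest lay at chr2:74522951-74523651. With the 938 top-scoring peaks taken from either list, H3K27me3 covered 13.1 kb in WT MEF and 2.40 kb with dox.

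Most H3K4me3 peaks of induced WT cells met H3K27me3 of untreated WT cells, in an interval dense in that mark. Of the 18 peaks, 15 met an H3K27me3 peak of untreated WT MEF (83.3%, exact 95% interval 58.6 to 96.4), against 7% of all H3K4me3 peaks with dox. That share is over the genome, whereas 32 H3K27me3 peaks covered 31.7% of the interval in untreated WT MEF. Peaks placed anywhere in it would often meet one, so the count does not show that the sites coincide. Only 1 of the 18 met an H3K27me3 peak with dox (1.2% of the whole list). H3K27me3 of untreated Utx-KO MEF was met by 12 of them (6.42% of the list), that of WT ESC by 13 (9.48%) and that of Utx-KO ESC by all 18 (31.3%). Conversely, 20 of the 32 H3K27me3 peaks of WT MEF met H3K4me3 with dox, against 37.9% of the list. Each of the 8 H3K4me3 peaks of WT ESC in HoxD met one of the dox peaks (76.2% of the WT ESC list), whereas 9 of the 18 dox peaks met an H3K4me3 peak of WT ESC (73.5% of the dox list) and 8 one of Utx-KO ESC (73.9%).

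Without Utx, dox was followed by wide H3K27me3 over the cluster and H3K4me3 at few sites. H3K27me3 covered 70.9 kb in Utx-KO MEF with dox and 2.40 kb in WT MEF with dox, a difference of 68.5 kb, and 99.4% of windows had at least 2-fold more in the Utx-KO list. The 29 peaks were 482 to 9007 bp wide, led by chr2:74533852-74540482 (score 937.35, rank 43 of 4335), and the widest was chr2:74570114-74579120. All 4 H3K27me3 peaks of WT MEF with dox met one of them (29.9% of the list), as did 30 of the 32 of untreated WT MEF (46.2% of the list). The 29 peaks covered 64.4% of the interval, so most peaks placed anywhere in it would meet one. With 938 top-scoring peaks from either list the lengths were 55.7 and 2.40 kb.

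Against untreated Utx-KO MEF, H3K27me3 covered 38.7 kb more with dox (70.9 against 32.1 kb, 2.21 times), and 51% of windows had at least 2-fold more. No window gained as many kb. Of the 37 peaks of Utx-KO MEF, 33 met a peak with dox (89.2%, exact 95% interval 74.6 to 97.0, against 40.8% of the list). The share over the list does not allow for the 64.4% of the interval covered with dox. When gaps of up to 1000 bp within a list were closed, the lengths were 76.3 and 39.4 kb, and the ratio was under 2.

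H3K4me3 covered 13.6 kb in Utx-KO MEF with dox against 39.8 kb in WT MEF with dox, 2.93 times less, whereas the totals of both lists over the genome were alike (52.8 and 52.0 Mb). Only 5.22% of windows had at least 2-fold less H3K4me3 in the Utx-KO list, and 2 of 24017 windows lost as many kb as HoxD. It was still 12.6 kb more than in untreated Utx-KO MEF, as it was at least 2-fold higher in 66.2% of windows. All 6 Utx-KO peaks met a WT dox peak (94.3% of the list), and 6 of the 18 WT peaks met a Utx-KO peak (33.3%, exact 95% interval 13.3 to 59.0, against 78.6% of the list).

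**Figure D3:**
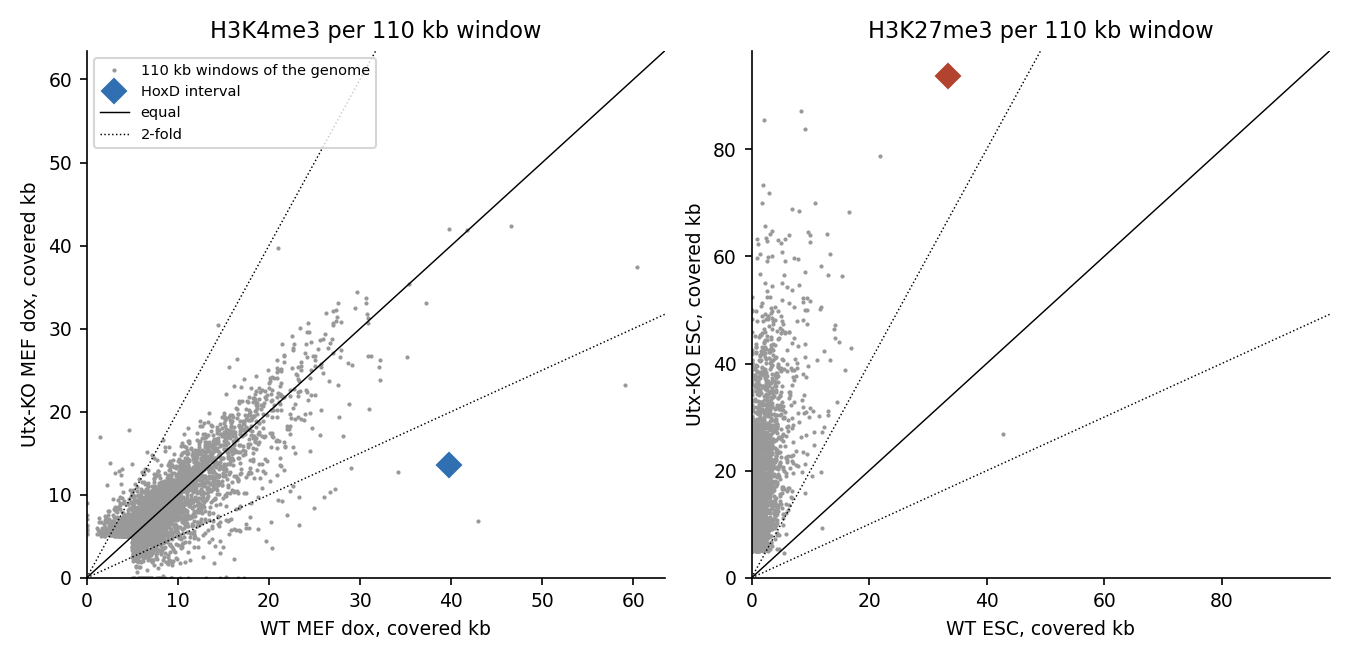
Covered kb per 110 kb window in WT cells (x axis) and Utx-KO cells (y axis), for H3K4me3 in MEF with dox (left) and H3K27me3 in ESC (right); grey points are windows with at least 5 kb in either list. The HoxD interval (diamond) lies below the 2-fold line for H3K4me3, at 39.8 and 13.6 kb, and above it for H3K27me3, at 33.5 and 93.7 kb.

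The 6 Utx-KO peaks with dox lay at 35.4 to 37.3, 41.8 to 45.1, 48.6 to 51.2, 64.3 to 66.6, 89.9 to 91.7 and 99.9 to 101.7 kb from the Hoxd13 end. The first 34 kb of the cluster, which WT cells with dox marked with 6 H3K4me3 peaks, had 0 in Utx-KO cells. The WT peaks lying from 70.5 to 88.9 kb, towards the Hoxd1 end, also had no H3K4me3 in Utx-KO cells. The same held for the WT peak at 52.6 to 54.2 kb, so the absence was not limited to the Hoxd13 end. Every one of the 6 lay on H3K27me3 of the same cells (exact 95% interval 54.1 to 100), against 9.33% of the list, and 12.65 kb, or 93.3% of the H3K4me3 length, was covered by both marks. In WT cells with dox the overlap was 0.108 kb.

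H3K27me3 in the Utx-KO cells also lay on the WT sites that lacked H3K4me3. Of the 18 WT peaks, 12 had no H3K4me3 in Utx-KO MEF with dox, and 12 of these 12 met H3K27me3 there (exact 95% interval 73.5 to 100), against 15% of all such peaks in the genome. Over all WT dox peaks 10.7% met H3K27me3 of the Utx-KO cells. The 6 WT peaks that had H3K4me3 in both met it as well, against 9.54% of all such peaks. H3K27me3 of the Utx-KO cells thus covered 71.3% to 100% of each of the 18 WT peaks, and did not separate the sites that had H3K4me3 from those that lacked it. In these cells H3K27me3 covered 64.4% of the interval, so most peaks placed anywhere in it would meet the mark. The shares over the genome do not allow for this.

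In ES cells H3K27me3 covered 93.7 kb without Utx and 33.5 kb with it, while H3K4me3 differed by less than 2-fold. The 8 Utx-KO H3K27me3 peaks were 4563 to 22185 bp wide, against 18 peaks of 727 to 3015 bp in WT ESC. The strongest, chr2:74581375-74594203, scored 3131.73, rank 3 of 36231 in its list. All 18 WT peaks met a Utx-KO peak (exact 95% interval 81.5 to 100), against 78.6% of the list, and 0.608 kb was covered in WT ESC only. With 85.2% of the interval covered in Utx-KO ESC, nearly every peak placed in it would meet one.

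The HoxD ratio was 2.80 and that of the whole lists 12.9. With 33.5 of 110 kb already covered in WT ESC, the interval could not have reached the latter. At the same time 99.6% of windows had at least 2-fold more in Utx-KO ESC. A gain in kb as large as that of HoxD was found in 14 windows. With 5679 top-scoring peaks from either list HoxD had 71.5 and 33.5 kb, still past 2-fold. The H3K4me3 difference, Utx-KO minus WT, was -2.16 kb (8.70 against 10.9 kb), not past 2-fold, with at least 2-fold less in 1.28% of windows and at least 2-fold more in 0.356%. Of the 8 WT ESC H3K4me3 peaks 6 met a Utx-KO peak, against 87.4% of the list, and 6 of the 7 Utx-KO peaks met a WT peak, against 86.2%.

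Most H3K4me3 peaks of WT ESC lay beside H3K27me3 peaks, not on them. Only 1 of 8 met H3K27me3 (12.5%, exact 95% interval 0.316 to 52.7, against 7.01% of the list), and 0.680 kb carried both marks. A further 6 stopped 184 to 474 bp short of an H3K27me3 peak, so that 7 of 8 lay within 500 bp of one, against 8.14% of the list. The 500 bp limit was chosen after these gaps were seen. H3K27me3 covered 30.4% of the interval, so many peaks placed anywhere in it would also lie that near. The remaining H3K4me3 peak, at chr2:74600633-74602261 towards the Hoxd1 end, was 10158 bp away and was the strongest of the 8 (score 219.17). In Utx-KO ESC all 7 H3K4me3 peaks met H3K27me3 (exact 95% interval 59.0 to 100, against 25.1% of the list), and 8.24 kb, or 94.8% of the H3K4me3 length, carried both marks. The 8 places where WT ESC had H3K4me3 all met H3K27me3 of Utx-KO ESC (24.2% of the list), and 4 of the 8 had H3K4me3 in Utx-KO MEF with dox (71.5% of the list). H3K27me3 covered 85.2% of the interval in Utx-KO ESC, so nearly all peaks placed anywhere in it would meet the mark. The shares over the lists do not allow for this. At peak resolution the marks thus lay mostly side by side in WT ESC and overlapped in Utx-KO ESC. Neither arrangement was compared with peaks placed anywhere in the interval.

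WT ESC and WT MEF had similar H3K27me3 lengths, 33.5 and 34.9 kb, with 16.5 kb in common. Of the 18 WT ESC peaks 16 met a WT MEF peak (88.9%, exact 95% interval 65.3 to 98.6), against 16.6% of the list, and 24 of the 32 WT MEF peaks met a WT ESC peak, against 22.5%. The mark covered 30.4% of the interval in WT ESC and 31.7% in WT MEF. Peaks placed anywhere in it would often meet, so these counts do not show that the sites coincide. At least 2-fold more or less H3K27me3 was found in 31.3% and 34.3% of windows. H3K4me3 was 9.65 kb longer in WT ESC, and 51.2% of windows had at least 2-fold more. None of the 8 WT ESC peaks met one of the 2 WT MEF peaks (exact 95% interval 0 to 36.9, against 60.4% of the list).

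The wrongly reprogrammed Utx-KO iPS clones had H3K4me3 peaks spread along the cluster and next to no H3K27me3. Clone 1 had no H3K4me3 peak between 66.6 and 78.0 kb from the Hoxd13 end. H3K4me3 formed 16 peaks in clone 1 and 20 in clone 2 and covered 24.4 ± 9.98 kb (SD, n = 2), 13.6 ± 9.98 kb more than in WT ESC. Clone 2 alone was past 2-fold (31.5 against 10.9 kb, 9.66% of windows), while clone 1 was not (17.4 kb, with 0.909% of windows at least 2-fold higher and 12.6% at least 2-fold lower). The strongest peaks were chr2:74600626-74602197 in clone 1 (score 1370.8) and chr2:74535175-74537730 in clone 2 (2137.86). They met 7 and 8 of the 8 WT ESC peaks, against 84.4% and 92.6% of the list. They also met 15 and 18 of the 18 peaks of WT MEF with dox (78.6% and 85.7% of that list).

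H3K27me3 in the clones covered 0.294 ± 0.416 kb (SD, n = 2), from a single peak in clone 1 at chr2:74517872-74518460 with a score of 54.73. The clones' whole lists held 135 and 737 H3K27me3 peaks, and at least 2-fold less than in WT ESC was found in 100% and 98.9% of windows, so the near absence in HoxD is that of the lists. None of the 16 and 20 H3K4me3 peaks met H3K27me3 of the same clone, against 0.0428% and 0.103% of the lists. Whether the mark or its detection was lost was not tested.

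Merged over the 8 lists, H3K4me3 fell into 19 sites. Untreated fibroblasts marked 2 of them in either genotype. Between 6 and 8 were marked in the cells of Utx-KO MEF with dox (6), Utx-KO ESC (7) and WT ESC (8). The most were marked in iPS clone 1 (16), WT MEF with dox (17) and iPS clone 2 (19). No site was marked in all 8 lists. The most shared, at chr2:74548649-74552019 (centre 50.3 kb from the Hoxd13 end), was missing in WT MEF only. Sites centred at 19.4, 36.3, 65.6 and 101.1 kb were marked in 6 lists.

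Within their lists the sites differed in strength and width. The site centred at 36.3 kb held the strongest HoxD peak of iPS clone 2 and the widest of WT ESC (2272 bp), Utx-KO ESC (1715 bp) and iPS clone 1 (1730 bp). The site at 53.6 kb had weak H3K4me3 in both untreated fibroblast lists and WT MEF with dox (scores 87.53 to 109.14) and in the iPS clones (125.01 and 116.71), and no H3K4me3 in WT ESC, Utx-KO ESC or Utx-KO MEF with dox. It carried no H3K27me3 in 6 lists, and lay under it in Utx-KO MEF with dox (94.5% of its length) and Utx-KO ESC (69.2%).

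**Figure D4:**
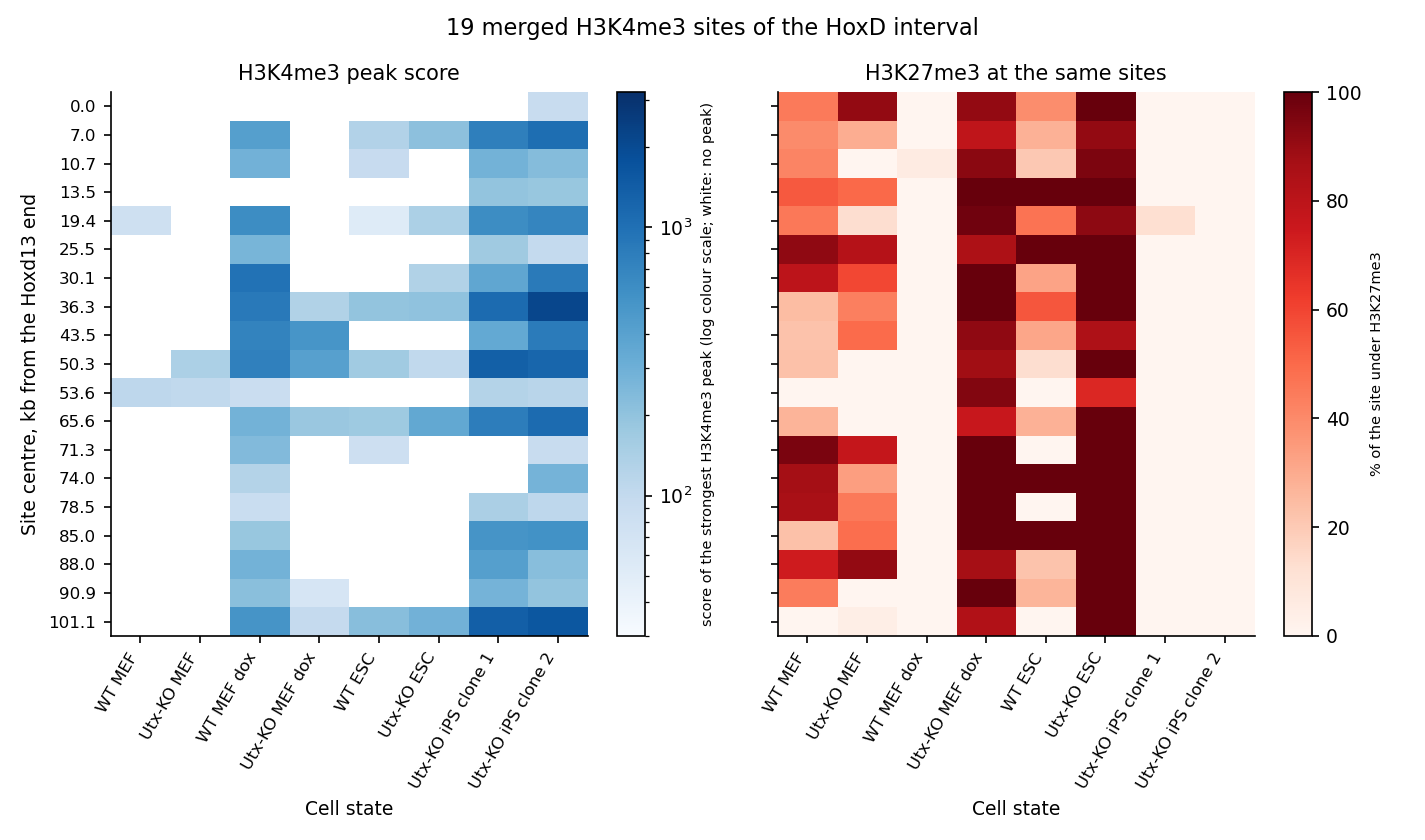
Each row is 1 of the 19 merged H3K4me3 sites, labelled by its centre in kb from the Hoxd13 end, and each column a state. The left panel shows the score of the strongest H3K4me3 peak on a log colour scale (white for no peak, and to be read within a column, since scores depend on the list) and the right panel the percent of the site under H3K27me3, which is at least 69.2% in every row for Utx-KO ESC and ranges from 0 to 95.9% in WT MEF.

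Both marks leaned towards the Hoxd13 end of the interval as drawn. The 55 kb next to the Hoxd13 end held 56.2% to 60.1% of the H3K27me3 length in the 5 lists with over 30 kb, and 56.7% to 67.8% of the H3K4me3 length in the 6 lists with more than 2 peaks. The last 5.29 kb at the Hoxd1 end held neither mark in any list, so the lean depends in part on where the interval was cut. In 5 kb bins, 81.8% of the 22 bins had H3K27me3 in at least 4 of the 8 lists and 63.6% had H3K4me3 in at least 4. The most filled H3K27me3 bin was 25 to 30 kb from the Hoxd13 end in WT MEF (4.18 kb) and in Utx-KO MEF (4.26 kb), and 85 to 90 kb in WT ESC (3.41 kb). For H3K4me3 the bin at 35 to 40 kb led in WT ESC (2.27 kb), Utx-KO ESC (1.72 kb) and iPS clone 1 (1.73 kb).

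Some stretches stayed free of a mark in each of the 8 lists. No H3K27me3 was called from 54.5 to 58.4 kb (chr2:74554531-74558380), from 94.2 to 98.5 kb (chr2:74594204-74598468) and in the last 5.29 kb, and H3K4me3 was missing from nearly all of the same bases. The longest stretch free of H3K4me3 was 9.62 kb (chr2:74554646-74564262). Bases under H3K27me3 in 5 lists amounted to 6.35 kb, and none lay under it in more than 5.

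UTX was mapped in 3 WT states, and its lists had 0 peaks in the interval. The nearest peak lay 1616 kb away in WT MEF, 177 kb in WT MEF with dox and 588 kb in WT ESC. UTX peaks were missing from 98.5%, 86.7% and 84.6% of all 110 kb windows, so an empty window was the common case.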

How the data were processed

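The authors deposited 1 peak list for each of 19 immunoprecipitated samples, with the chromosome, start, end and a score of each peak, called per sample. The submitters' processing notes list MACS 1.4.1, Bowtie 0.12.5 and CASAVA 1.8.2, on mm9, without roles, settings or controls. The deposited score had a lowest value of 50 and has the form MACS writes, a multiple of the negative base 10 logarithm of a p-value. It depends on depth, which was unknown. The 8 whole-cell extracts were not analysed here. Groups came from sample titles.

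Peaks on 21 chromosomes were kept, leaving out 1 other peak. Covered length is the union of peaks in the interval, coordinates are 1-based, and peaks met when they shared at least 1 bp. States differed by call when one covered length was at least 2 times the other. Intervals are exact binomial and treat peaks as independent. Neighbouring peaks of a library are dependent, and the intervals allow neither for this nor for spread between libraries. The share over a whole list does not allow for how much of this interval a list covered. Meetings are more frequent where it covered more. No difference was tested: each state had 1 library per mark except the iPS cells, whose 2 clones were set beside a single WT ESC library. Positions of gene tables made for GRCm38 were not used. Peaks printed are the strongest and the widest of a list; others were chosen after their values were seen. The interval, members and lists were chosen with earlier results of these data known. The overlap code recovered every value for 10 of 10 pairs of simulated lists and against bedtools 2.31.1. Scripts ran in Python 3.11.15 with scipy 1.17.1, pandas 2.3.3, matplotlib 3.10.9 and numpy 2.4.6.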

Additional observations from a re-analysis of the deposited data

Results flagged for a closer look

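H3K27me3 in HoxD moved in opposite directions in groups given the same contrast, with 1 library in each arm, and these differences were not tested. With dox the covered length changed by -32.5 kb in WT fibroblasts and by 38.7 kb in Utx-KO fibroblasts. Loss of Utx changed it by -2.76 kb in untreated fibroblasts, by 68.5 kb in fibroblasts with dox and by 60.2 kb in ES cells. The first of these 3 is under 2-fold, and the WT list with dox is short at 938 peaks.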

How the results depend on the processing

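Differences in covered kb were recomputed with peaks scoring at least 100, with equal numbers of top-scoring peaks, with gaps of up to 1000 bp closed and with the interval shortened by 10 kb at both ends. No difference past 2-fold changed direction. With equal numbers of peaks, the H3K27me3 difference was -10.7 kb for dox in WT MEF, 53.3 kb for Utx-KO against WT MEF with dox, 38.0 kb for Utx-KO against WT ESC and -13.2 kb for the iPS mean against WT ESC, where fewer peaks of the longer list enter. The iPS H3K27me3 difference was also -25.6 kb at a score of at least 100, -33.7 kb with gaps closed and -31.1 kb in the shortened interval, outside the small spread of the 2 clones. Without one clone it ranged from -33.5 to -32.9 kb, and for H3K4me3 from 6.51 to 20.6 kb. Without clone 2 the H3K4me3 difference was not past 2-fold. Both H3K4me3 differences for Utx loss that were under 2-fold changed sign at a score of at least 100, to 0.383 kb in untreated MEF and 0.933 kb in ESC. With equal peak numbers the former was -0.716 kb and past 2-fold, on 1 peak against 2. In bins of 10 kb, 100% had H3K4me3 in at least 4 lists. Allowing 500 bp between peaks, a choice made after the data were seen, raised the share of WT ESC H3K4me3 peaks at H3K27me3 from 12.5% to 87.5%. No paired analysis was possible because each state other than the iPS cells has 1 library per mark, and the clone numbers pair with no other group.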

Other observations

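The H3K27me3 domain ended inside the interval on the Hoxd1 side and ran past it on the Hoxd13 side. In the next 110 kb beyond the Hoxd13 end H3K27me3 covered 9.66 kb in WT MEF, 6.86 kb in Utx-KO MEF, 12.3 kb in Utx-KO MEF with dox, and in ESC 3.88 kb with and 16.6 kb without Utx. In the 110 kb beyond the Hoxd1 end it covered 0.595 kb in Utx-KO MEF with dox and 0 kb in the other 7 lists. H3K4me3 in that latter flank ranged only from 1.46 kb in WT MEF to 2.69 kb in WT MEF with dox. On the Hoxd13 side it was 7.27 kb in WT MEF with dox and 3.03 kb in Utx-KO MEF with dox, so the lower value without Utx was seen there as well.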
